A study of Mus musculus with 6 samples.

Results

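Cd81 and 6 further tetraspanins of leukocytes (Cd9, Cd63, Cd82, Cd37, Cd53 and Cd151) were followed in macrophages of mice without Tet2 and of wild-type mice. They make up 7 of the 23185 genes named on the arrays, and each was measured by 1 probe set. Cd81 was chosen because it was high on a pair of the Tet2-/- arrays, so its levels are given below as a description with no test. The other 6 were taken as the tetraspanins best known from blood cells, with results of these arrays already known.

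The cells were macrophages that thioglycollate, an irritant, had drawn into the peritoneal cavity of C57BL/6J mice over 4 days. They came from Tet2-/- mice or from wild-type littermates, were plated for 10 h without any stimulus, and their total RNA was hybridised to Affymetrix whole-transcript arrays. Each genotype had 3 arrays, titled as biological replicates 4, 5 and 6. The labels do not say whether each array came from its own animal. The p-values therefore reflect only the spread among these arrays, and how far it is a spread between animals is not given. The sources used here do not say which part of Tet2, a dioxygenase that oxidises 5-methylcytosine in DNA, was deleted or whether the deletion was limited to some cell types. The comparison asks which transcripts differ in macrophages when Tet2 is missing.

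Tetraspanins are small proteins that cross the membrane 4 times and gather integrins, immunoglobulin-domain proteins, proteases and each other into patches of the plasma membrane. CD81 is carried widely by leukocytes. CD9 and CD81 restrain the fusion of macrophages into giant cells, CD63 resides in late endosomes and lysosomes, and CD9, CD63 and CD81 serve as marker proteins of extracellular vesicles. CD37 and CD53 are largely limited to blood cells, CD82 is known as a suppressor of metastasis, and CD151 binds laminin-receptor integrins.

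The genotype labels contradict each other for 4 of the 6 samples. By title the groups hold replicates 4, 5 and 6 each, and this grouping is used throughout, with Tet2-/- meaning the libraries titled as deficient. By the genotype characteristic, Tet2-/- replicates 4 and 6 would be wild-type and wild-type replicates 5 and 6 would be Tet2-/-. Tet2 itself was at 3.80, 4.05 and 3.67 on the log2 scale in Tet2-/- replicates 4, 5 and 6, against 4.35, 3.74 and 3.79 in the wild-type replicates. These ranges overlapped (difference -0.12, limma adjusted p = 0.998), so the level does not settle which label is right. One array stood apart: Tet2-/- replicate 6 had the highest median, 2.93 log2 units against 2.77 to 2.82 on the other 5, and the narrowest interquartile range, 2.99 against 3.16 to 3.33. It was the highest of the 6 arrays for 29.5% of the 25206 probe sets and the lowest for 20.5%. The 8 measured macrophage markers averaged 8.90 to 9.56 log2 units on the Tet2-/- arrays and 9.14 to 9.44 on the wild-type arrays. The T and NK cell, mast cell, eosinophil and dendritic cell lists were the dimmest, averaging between 1.92 and 2.43 on all 6. The B-cell, neutrophil, platelet, and mesothelial and stromal lists averaged above that range on every array, and below the macrophage markers. These averages do not give the share of each cell type.

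The 250 bases before the transcript start are shown for Cd81, Cd9 and Cd53. CpG sites are where the cytosine methylation that TET enzymes oxidise mostly lies in mammals. Cd9 and Cd53 both varied little over the 6 arrays, by 0.33 and 0.39 log2 units. The sequences are from RefSeq (GRCm38.p6), 5′ to 3′ on the strand of the gene, with CpG sites in capitals. They lie at chr7:143052500-143052749 (plus strand) for Cd81, chr6:125494761-125495010 (minus strand) for Cd9 and chr3:106790150-106790399 (minus strand) for Cd53.
Cd81: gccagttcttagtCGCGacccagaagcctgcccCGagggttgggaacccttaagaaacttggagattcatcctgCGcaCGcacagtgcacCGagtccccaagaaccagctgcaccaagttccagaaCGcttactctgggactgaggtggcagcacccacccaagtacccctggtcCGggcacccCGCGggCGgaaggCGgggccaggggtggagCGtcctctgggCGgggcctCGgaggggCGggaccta
Cd9: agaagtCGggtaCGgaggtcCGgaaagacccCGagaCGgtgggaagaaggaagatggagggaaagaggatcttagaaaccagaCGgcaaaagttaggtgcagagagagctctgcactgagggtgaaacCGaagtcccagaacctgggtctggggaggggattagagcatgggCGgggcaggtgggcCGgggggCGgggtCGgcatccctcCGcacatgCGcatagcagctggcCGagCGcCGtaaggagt
Cd53: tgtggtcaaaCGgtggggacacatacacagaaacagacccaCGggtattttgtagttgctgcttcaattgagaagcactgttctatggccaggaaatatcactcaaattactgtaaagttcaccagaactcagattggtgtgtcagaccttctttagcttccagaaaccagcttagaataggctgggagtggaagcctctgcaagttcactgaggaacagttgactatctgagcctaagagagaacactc

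The windows of Cd81 and Cd9 both held 16 CpG sites, a number that 25.4% of the 32851 promoter windows in the table reach, and the window of Cd53 held 2. The median over all windows was 6. GGGCGG on either strand, a binding motif of SP1-type factors, occurred 3 times before Cd81, 2 times before Cd9 and 0 times before Cd53, and in 32.7% of all windows at least once. GAGGAA on either strand, a core of sites for the macrophage factor PU.1, occurred once before Cd53 and in neither of the other windows, against 23.3% of all windows. Cd81 and Cd9 thus had the same number of CpG sites, while their ranges over the 6 arrays were 1.59 and 0.33 log2 units. A link between CpG sites and these levels was not tested. DNA methylation was not measured on these arrays.

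Cd81 had log2 levels of 8.82, 9.04 and 7.51 in Tet2-/- replicates 4, 5 and 6, against 7.66, 7.45 and 7.71 in wild-type replicates 4, 5 and 6. Tet2-/- replicates 4 and 5 were the highest arrays, with the lower of them 1.11 log2 units above the highest wild-type array, whereas Tet2-/- replicate 6 lay among the wild-type arrays. Cd81 averaged 8.46 ± 0.827 in Tet2-/- macrophages and 7.61 ± 0.138 in wild-type macrophages (SD, n = 3 each), a difference of 0.85, or 1.8-fold. The spread within the Tet2-/- group was therefore about as large as the difference. Leaving out Tet2-/- replicate 6 put the difference at 1.32 and leaving out Tet2-/- replicate 5 put it at 0.56. By the genotype characteristic the high pair would be split between the genotypes, and the difference would be 0.07. The range of Cd81 over the 6 arrays, 1.59 log2 units, was reached by 1.19% of the named genes, the median over all probe sets being 0.52. Because Cd81 was picked for its rise on the high pair, a wide range is part of how it was chosen. In whole-population RNA a change in the share of cells that carry a transcript and a change in its amount per cell cannot be told apart.

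**Figure D1:**
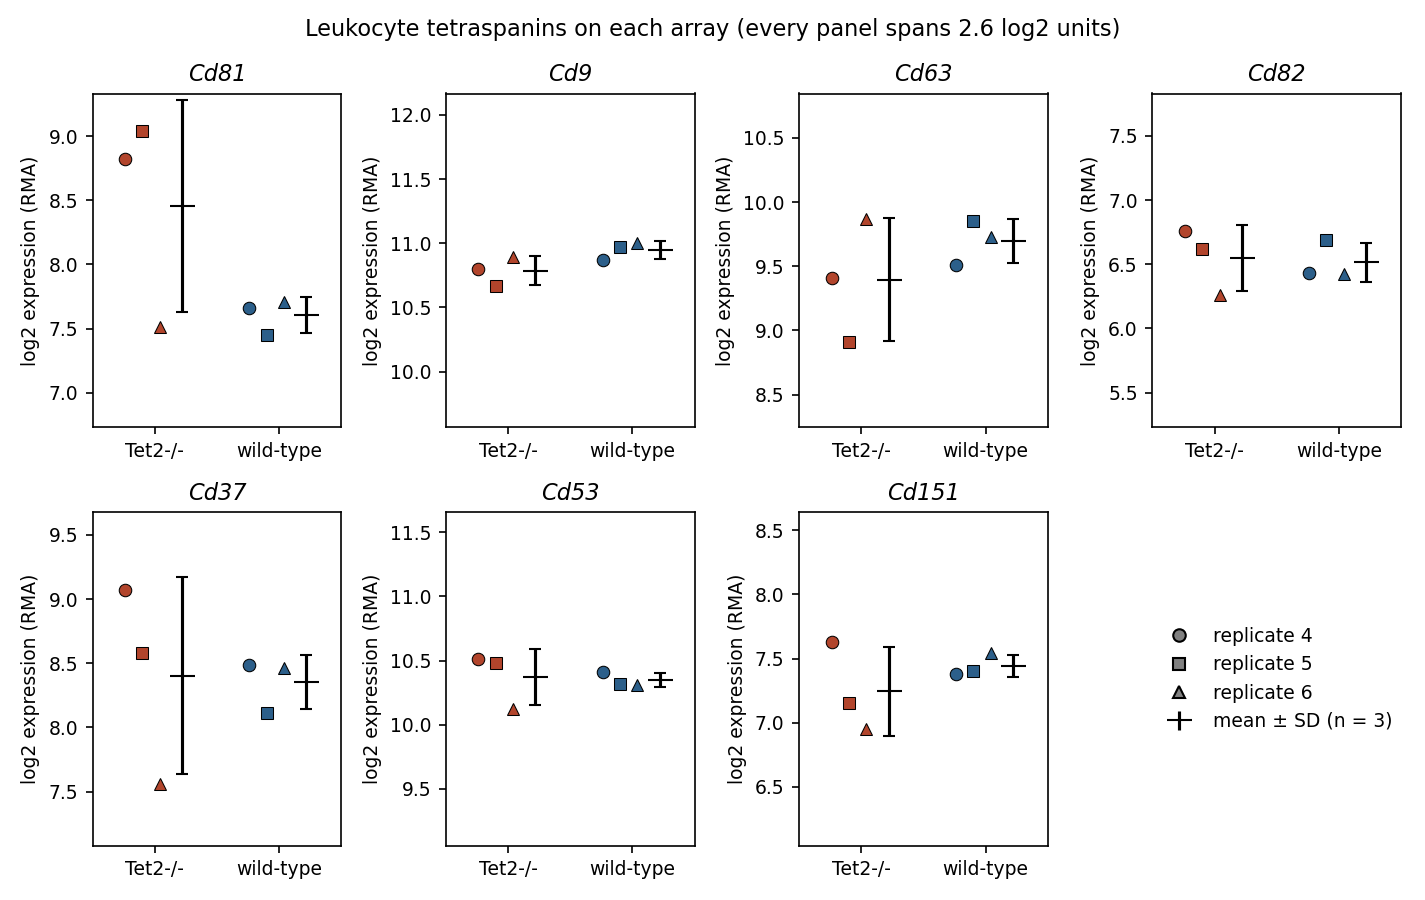
Log2 expression (y axis, RMA) of the 7 tetraspanins on each Tet2-/- array (left) and each wild-type array (right); symbols mark the replicate number, and bars give the mean ± SD of 3 arrays. Cd81 sits at 8.82 and 9.04 on Tet2-/- replicates 4 and 5 and between 7.45 and 7.71 on the other 4 arrays.

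No tetraspanin passed the test between the genotypes. Over the whole table limma called 0 of 25206 probe sets at an adjusted p under 0.05 (0%), and 910 (3.61%) had an unadjusted p under 0.05. On the deposited values the arrays of Tet2-/- and wild-type cells overlapped for 7 of the 7 leukocyte tetraspanins, whereas 7.41% of all probe sets had groups that did not overlap. The median difference of the 7 was 0.023, against 0.00 over all probe sets. The 6 members other than Cd81 each had a limma adjusted p of 0.998.

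Among the partners of CD81 in extracellular vesicles and in macrophage fusion, Cd9 varied least, over a range of 0.33 log2 units. Cd9 was at 10.80, 10.67 and 10.89 in Tet2-/- replicates 4, 5 and 6, against 10.87, 10.97 and 11.00 in the wild-type replicates. Its Tet2-/- replicates 4 and 5 were the lowest arrays, and the difference was -0.16 (95% confidence interval -0.45 to 0.13), or -0.10 with Tet2-/- replicate 5 omitted. A further quantile normalization put Cd9 at 10.79, 10.74 and 10.84 in the Tet2-/- replicates, against 10.92, 11.05 and 10.94 in the wild-type replicates. Its groups then no longer overlapped, and the share of all probe sets with such groups was not counted after that step. Cd63, the tetraspanin of late endosomes, was at 9.41, 8.91 and 9.87 in the Tet2-/- replicates, against 9.51, 9.85 and 9.73 in the wild-type replicates. Here too Tet2-/- replicates 4 and 5 were lowest, while Tet2-/- replicate 6 was the highest of all, so the Tet2-/- arrays spanned the wild-type ones. The Cd63 difference was -0.30 (95% confidence interval -0.82 to 0.22), with -0.54 when Tet2-/- replicate 6 was omitted and -0.057 when replicate 5 of that group was. For 11.9% of all probe sets Tet2-/- replicates 4 and 5 were likewise the lowest arrays.

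The blood-cell tetraspanins Cd37 and Cd53 shared the top pair of arrays with Cd81, but not the order within it or the lowest array. Cd37, a partner of the fungal receptor dectin-1, was at 9.07, 8.58 and 7.56 in Tet2-/- replicates 4, 5 and 6, against 8.49, 8.11 and 8.46 in the wild-type replicates. Tet2-/- replicates 4 and 5 were the highest arrays and Tet2-/- replicate 6 the lowest, so the group means nearly met: 8.40 ± 0.77 in Tet2-/- cells and 8.35 ± 0.211 in wild-type cells (SD, n = 3 each). The difference of 0.05 (95% confidence interval -0.70 to 0.80) became 0.47 when Tet2-/- replicate 6 was omitted and -0.28 when replicate 4 of that group was. A further quantile normalization left Cd37 at 7.67 on Tet2-/- replicate 6, which was still the lowest array. Cd53 was at 10.51, 10.48 and 10.12 in the Tet2-/- replicates, against 10.41, 10.32 and 10.31 in the wild-type replicates. The top pair and the bottom array were those of Cd37, over a range of only 0.39 log2 units, with a difference of 0.02 (95% confidence interval -0.31 to 0.36). Cd81, Cd37 and Cd53 are 3 of 7 members for which Tet2-/- replicates 4 and 5 were the highest arrays, an order found for 8.81% of all probe sets. Cd81 was picked for this order, so the count supports nothing about the family.

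Cd82 and Cd151, which are known for their integrin partners, followed neither order. Cd82 was at 6.76, 6.62 and 6.26 in Tet2-/- replicates 4, 5 and 6, against 6.43, 6.69 and 6.42 in the wild-type replicates. The groups overlapped widely, with a difference of 0.03 (95% confidence interval -0.34 to 0.41). Cd151 was at 7.63, 7.15 and 6.95 in the Tet2-/- replicates, against 7.38, 7.40 and 7.54 in the wild-type replicates. Its Tet2-/- arrays lay on both sides of the wild-type arrays, and the difference of -0.20 (95% confidence interval -0.61 to 0.22) became -0.39 when Tet2-/- replicate 4 was omitted and -0.050 when replicate 6 of that group was. In both genes, as in Cd37 and Cd53, Tet2-/- replicate 6 was the lowest array.

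The rest of the family was described from a list of 26 further tetraspanins, of which 23 were measured. In the Tet2-/- arrays 9 had a higher mean and 14 a lower one, with a median difference of -0.043. By limma 0 passed an adjusted p of 0.05 and 1, Tspan32, had an unadjusted p under 0.05, against 3.61% of all probe sets. Tspan32 was also the single gene among the 23 whose groups did not overlap, where 7.41% of all probe sets had such groups. After it, the 4 largest differences belonged to Rom1 (-0.32) and Prph2 (0.25), a pair that builds photoreceptor discs, to Tspan4 (-0.23), known for its place in migrasomes, and to Tspan2 (0.21). All 4 had overlapping groups, and single arrays moved them. Rom1, Prph2 and Tspan2 were also dim, with group means between 1.57 and 2.84 log2 units, near or below the medians of the arrays. The Rom1 difference lay between -0.49 (wild-type replicate 6 omitted) and -0.087 (Tet2-/- replicate 4 omitted), and that of Prph2 between 0.15 (wild-type replicate 4 omitted) and 0.36 (wild-type replicate 6 omitted). That of Tspan4 lay between -0.32 (Tet2-/- replicate 4 omitted) and -0.14 (Tet2-/- replicate 5 omitted), and that of Tspan2 between 0.097 (Tet2-/- replicate 6 omitted) and 0.32 (Tet2-/- replicate 5 omitted).

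**Figure D2:**
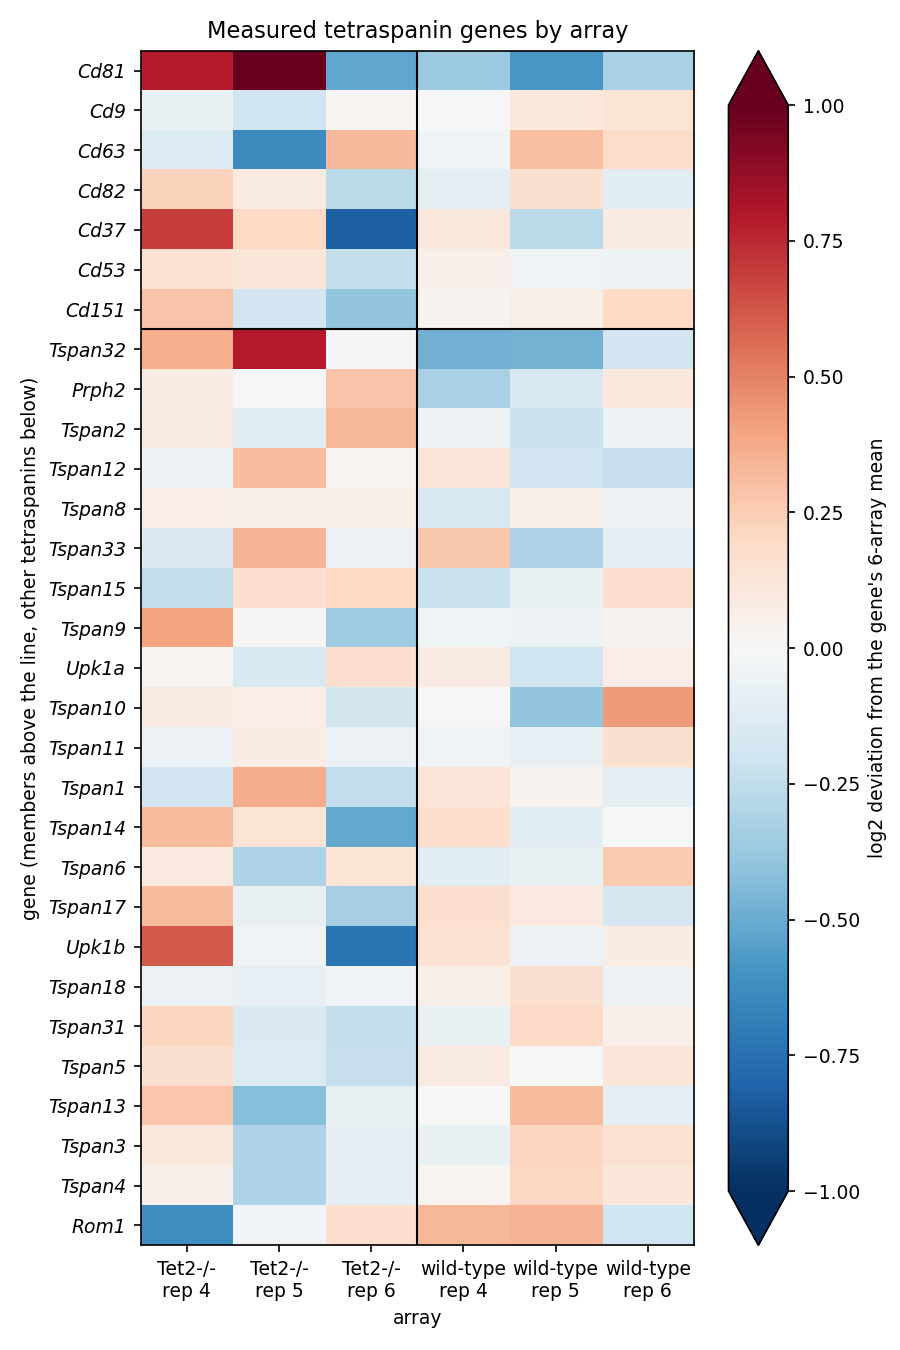
Log2 deviation of each measured tetraspanin gene (rows) from its own mean over the 6 arrays (columns, Tet2-/- left of the line); the 7 members stand above the other 23, which are sorted by their difference, and colours saturate at 1 log2 unit. Red on Tet2-/- replicates 4 and 5 together with blue on the wild-type arrays is seen for Cd81 and Tspan32.

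Tspan32, a tetraspanin of blood cells, is also the nearest protein-coding gene on 1 side of Cd81 on chromosome 7. Its log2 level was 4.49, 4.92 and 4.12 in Tet2-/- replicates 4, 5 and 6, against 3.65, 3.66 and 3.94 in the wild-type replicates. Every Tet2-/- array thus lay above every wild-type array, with Tet2-/- replicates 4 and 5 on top as for Cd81. The means were 4.51 ± 0.4 in Tet2-/- cells and 3.75 ± 0.165 in wild-type cells (SD, n = 3 each), differing by 0.76 ± 0.205 (standard error), which failed the test at a limma adjusted p of 0.998. With single arrays left out the difference ran between 0.56 and 0.95. The groups overlapped for the 3 other neighbours of Cd81. Tssc4 was at 4.59, 4.44 and 4.15 in Tet2-/- replicates 4, 5 and 6, against 4.44, 4.09 and 4.36 in the wild-type replicates. Its highest array was thus Tet2-/- replicate 4, with Tet2-/- replicate 5 level with wild-type replicate 4. The long noncoding RNA R74862, annotated between Tspan32 and Cd81, differed by 0.11. Tssc4 on the other side differed by 0.10 and the cation channel gene Trpm5 next to it by -0.14. R74862 and Trpm5 were dim, between 2.08 and 2.55 log2 units, below the median of every array. With single arrays omitted R74862 ran between 0.015 and 0.18 (lowest without wild-type replicate 6), Tssc4 between -0.0067 and 0.22 and Trpm5 between -0.20 and -0.027 (highest without wild-type replicate 5 for Trpm5, lowest without it for Tssc4).

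Tetraspanins that steer the protease ADAM10 (Tspan5, Tspan10, Tspan14, Tspan15, Tspan17 and Tspan33) were looked at as a subgroup after their values had been seen. All 6 were measured, their differences ran between -0.14 and 0.09, and 0 passed the test (limma adjusted p under 0.05) or had an unadjusted p under 0.05. For Tspan5, Tspan14 and Tspan17 Tet2-/- replicate 6 was the lowest array, as for 11 of all 30 measured tetraspanins and for 20.5% of all probe sets. Tspan14, for example, was at 8.34, 8.16 and 7.51 in Tet2-/- replicates 4, 5 and 6, against 8.20, 7.91 and 8.03 in the wild-type replicates. Adam10 itself was at 8.92, 9.32 and 8.43 in the Tet2-/- replicates, against 8.92, 8.50 and 8.40 in the wild-type replicates, so that its groups overlapped.

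Partner proteins of tetraspanins were listed as 24 genes, of which 23 were measured. Of these 17 had a higher mean and 6 a lower one in Tet2-/- arrays, against 12396 higher and 12597 lower over all probe sets. The median difference was 0.18, and 0 passed the test (limma adjusted p under 0.05). An unadjusted limma p under 0.05 was found for 3 (Itga4, H2-Aa and Hbegf), against 3.61% of all probe sets. Groups did not overlap for 4 of the 23: H2-Aa and H2-Ab1 were above wild-type and Hbegf and Cd36 below it, where 3.33% of all probe sets lay wholly above and 4.07% wholly below. The largest differences among the partners lay in integrin chains. Itga4, the alpha 4 chain that binds VCAM-1 and fibronectin, was at 7.42, 8.07 and 6.85 in Tet2-/- replicates 4, 5 and 6, against 7.01, 6.33 and 6.53 in the wild-type replicates. Itga6, the laminin-binding alpha 6 chain, was at 8.91, 9.20 and 7.58 in the Tet2-/- replicates, against 8.18, 7.56 and 7.66 in the wild-type replicates. For both chains Tet2-/- replicates 4 and 5 were the highest arrays and replicate 6 lay among the wild-type arrays. The differences were 0.82 for Itga4 and 0.76 for Itga6 (limma adjusted p = 0.998 each). Omitting Tet2-/- replicate 6 put them at 1.12 for Itga4 and 1.25 for Itga6, and omitting replicate 5 of that group at 0.51 for Itga4 and 0.45 for Itga6.

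Other partners moved less. H2-Aa, an MHC class II chain found in tetraspanin patches, differed by 0.64, and Hbegf, a growth factor whose membrane form binds CD9, by -0.50. Hbegf was at 4.28, 4.20 and 4.21 in Tet2-/- replicates 4, 5 and 6, against 4.46, 4.67 and 5.06 in the wild-type replicates, so all its Tet2-/- arrays were low and close together. Timp1, a protease inhibitor that binds CD63, differed by 0.36 (0.19 with Tet2-/- replicate 4 omitted, 0.57 with wild-type replicate 6 omitted). The limma adjusted p was 0.998 for each of these 3 genes. Of the immunoglobulin-domain partners of CD9 and CD81, named after their values were seen, Igsf8 differed by -0.29 and Ptgfrn by 0.14, with overlapping groups. Clec7a, which encodes dectin-1, the partner of CD37, was at 10.34, 10.45 and 10.32 in the Tet2-/- replicates, against 10.29, 10.37 and 10.43 in the wild-type replicates.

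**Figure D3:**
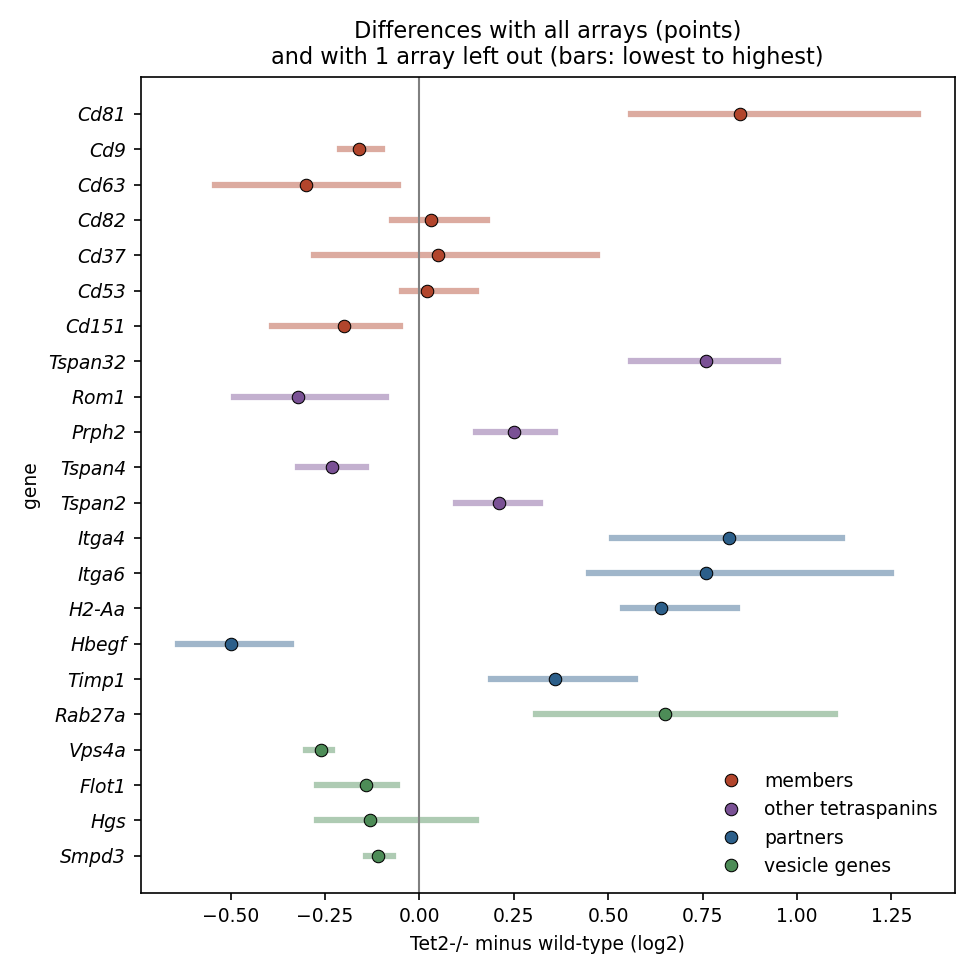
Tet2-/- minus wild-type difference in log2 units (x axis) for the 7 members and for the 5 genes with the largest difference among other tetraspanins, partners and vesicle genes; points use all 6 arrays, and bars run over the lowest to the highest value when 1 array is left out. Bars of Cd37, Cd53 and Cd82 cross 0, and that of Cd81 runs between 0.56 and 1.32.

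Genes for making and releasing extracellular vesicles, the carriers of CD9, CD63 and CD81, differed little. Of 16 measured, 3 had a higher mean and 13 a lower one in Tet2-/- arrays, against 12396 higher and 12597 lower over all probe sets. The median difference was -0.047, and 0 passed the test (limma adjusted p under 0.05) or had an unadjusted p under 0.05. Relative to the 6-array mean the 16 stood at 0.13, 0.04 and -0.19 in Tet2-/- replicates 4, 5 and 6, against 0.06, 0.01 and -0.05 in the wild-type replicates. Tet2-/- replicate 6 was the lowest array for 9 of the 16, against 20.5% of all probe sets. Groups did not overlap for 2 of the 16, both lower in Tet2-/-, an arrangement found for 4.07% of all probe sets. These were Vps4a, an ATPase that disassembles the ESCRT machinery, at -0.26 and Smpd3, a ceramide-producing sphingomyelinase, at -0.11. Rab27a, a GTPase that docks vesicle-bearing endosomes at the plasma membrane, was the exception in size. It was at 5.83, 6.27 and 4.69 in Tet2-/- replicates 4, 5 and 6, against 5.16, 5.12 and 4.56 in the wild-type replicates, and again Tet2-/- replicates 4 and 5 were highest. Its difference of 0.65 became 1.10 when Tet2-/- replicate 6 was omitted and 0.31 when replicate 5 of that group was. Flot1, a scaffold protein of membrane rafts, differed by -0.14 and the ESCRT component Hgs by -0.13. Omitting Tet2-/- replicate 4 put both at -0.27, and omitting replicate 6 of that group put Flot1 at -0.06 and Hgs at 0.15. Smpd3 was at -0.07 with wild-type replicate 6 omitted.

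The genes whose levels followed Cd81 most closely over the 6 arrays were Cxcl13, Lrg1, Gpr141, F11r and Tmem176a. Likeness was measured as the root mean square difference of the log2 deviations from each gene's own 6-array mean, among 12673 genes that varied by at least 0.5 log2 units. It was 0.104 for Cxcl13, a chemokine that attracts B cells, 0.117 for Lrg1, a secreted leucine-rich glycoprotein, and 0.122 for Gpr141, an orphan receptor. It was 0.124 for F11r, the junctional adhesion molecule JAM-A, and 0.162 for Tmem176a, a membrane protein of myeloid cells. Cxcl13, for example, was at 6.32, 6.65 and 5.09 in Tet2-/- replicates 4, 5 and 6, against 5.06, 5.03 and 5.45 in the wild-type replicates. The Tet2-/- and wild-type arrays overlapped for Cxcl13, Lrg1 and Gpr141 and did not for F11r and Tmem176a.

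By the same measure Itga6 was the 9th closest gene at 0.177, Itga4 was at 0.273, Rab27a at 0.277 and Tspan32 at 0.298. Among the other members Cd37 came closest, at 0.455, and Cd63 was farthest, at 0.951. These values share the arrays and the normalization, and with 6 arrays many genes come close to any given one, so they describe the order of the arrays and carry no test.

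**Figure D4:**
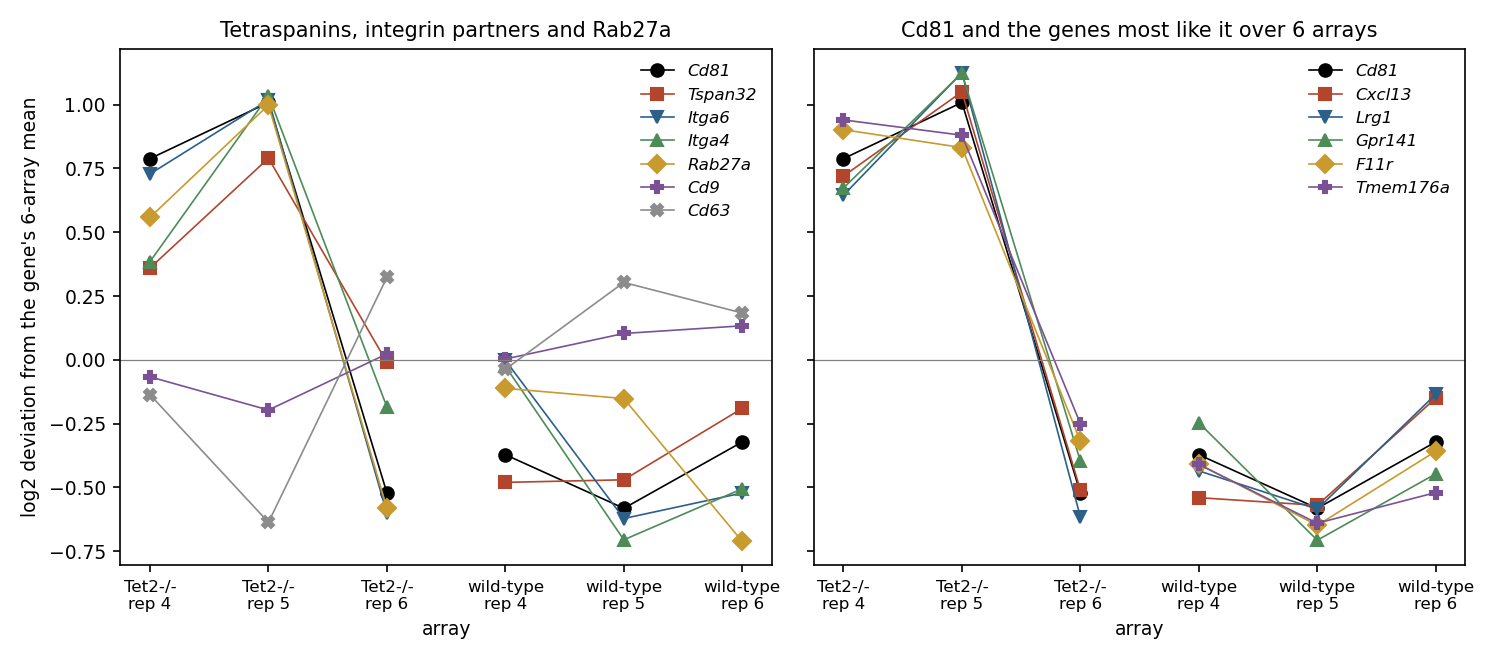
Log2 deviation from each gene's 6-array mean (y axis) by array (x axis, Tet2-/- left), for Cd81 with tetraspanins, integrin chains and Rab27a (left) and for Cd81 with the 5 genes most like it (right); lines join the arrays of a genotype only to guide the eye. Cd81, Itga4, Itga6, Rab27a and Tspan32 peak on Tet2-/- replicate 5, where Cd9 and Cd63 are lowest.

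The marker lists of large peritoneal macrophages, B cells and macrophages were highest on the pair of arrays on which Cd81 was high. The 11 measured genes of resident large peritoneal macrophages stood, relative to the 6-array mean, at 0.66, 1.00 and -0.57 in Tet2-/- replicates 4, 5 and 6, against -0.04, -0.59 and -0.46 in the wild-type replicates. For 9 of the 11 Tet2-/- replicates 4 and 5 were the highest arrays, against 8.81% of all probe sets. The 12 measured B-cell genes stood at 0.31, 0.83 and -0.33 in the Tet2-/- replicates, against -0.34, -0.26 and -0.21 in the wild-type replicates, with that order for 7 of the 12. Their mean level was 3.48, 4.00 and 2.84 log2 units in the Tet2-/- replicates and 2.82, 2.91 and 2.96 in the wild-type replicates. The B-cell genes did not move together: their differences ran between -0.80 and 1.59, with 10 higher and 2 lower in Tet2-/- arrays. Groups did not overlap for 1 above wild-type and 1 below it, against 3.33% and 4.07% of all probe sets. The large peritoneal macrophage and B-cell lists were thus high on average on that pair of arrays, and their part in the Cd81 levels was not tested.

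The macrophage markers stood at 0.19, 0.28 and -0.38 in Tet2-/- replicates 4, 5 and 6, against 0.15, -0.15 and -0.10 in the wild-type replicates. Tet2-/- replicates 4 and 5 were thus highest here too, by a smaller margin, and Tet2-/- replicate 6 was lowest. For 4 of the 8 (Adgre1, Cd14, Csf1r and Itgam) Tet2-/- replicates 4 and 5 were the highest arrays, against 8.81% of all probe sets. The T and NK cell, mast cell, eosinophil, neutrophil, dendritic cell and platelet lists lay within -0.18 and 0.19 on all 6 arrays. The 11 mesothelial and stromal genes stood at 0.21, -0.09 and 0.03 in the Tet2-/- replicates, against -0.16, -0.27 and 0.28 in the wild-type replicates, which is not the order of Cd81.

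**Figure D5:**
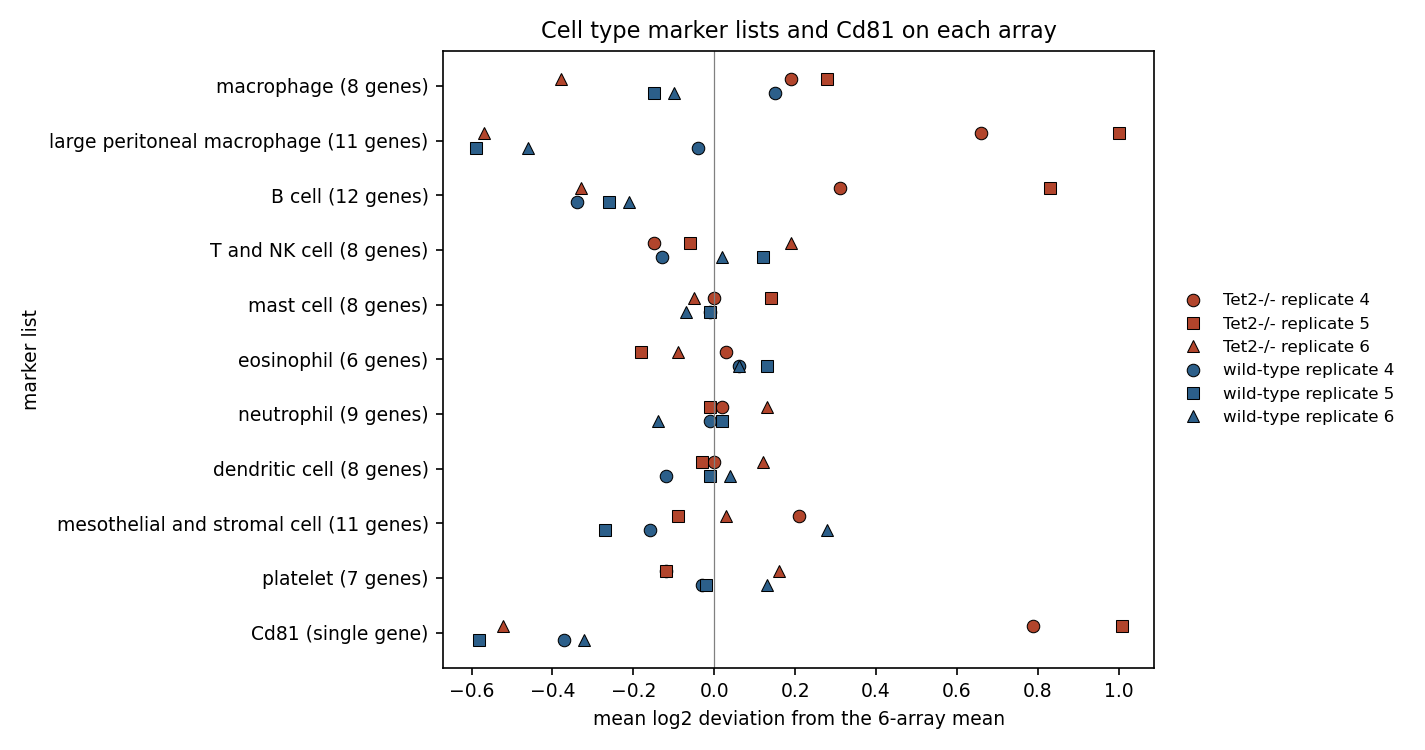
Mean log2 deviation from the 6-array mean (x axis) of each cell type marker list and of Cd81 (rows), with 1 symbol per array (Tet2-/- above wild-type in each row). The large peritoneal macrophage and B-cell lists are highest on Tet2-/- replicates 4 and 5, as Cd81 is, and so by a smaller margin is the macrophage list.

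Leaving out Tet2-/- replicate 6 raised the number of probe sets past the threshold (limma adjusted p under 0.05) to 19 of 25206 (0.0754%). Cd81, F11r and Tmem176a were among them, and no other tetraspanin was. Because Cd81 was picked for its level on the 2 Tet2-/- arrays that remain, its presence among the 19 is part of how it was chosen and supports nothing. F11r and Tmem176a were picked for their likeness to Cd81 over these arrays, so the same holds for them.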

How the data were processed

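The authors deposited log2 values of 25206 probe sets on 6 arrays. The submitters' processing notes name RMA and affy 1.36.1. RMA corrects background, quantile-normalizes and summarises probes, and it compresses differences of dim genes. The log2 scale was read from the values, and whether all arrays were normalized together is not given in the sources used here. The number of arrays limits the precision.

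Probe sets were named through the platform annotation, 1 gene each for 23185, with 2021 unnamed. RefSeq (GRCm38.p6) matched all 23185 by gene identifier, and 0 symbols changed; it served for names, for neighbouring genes and for promoter sequences.

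The test was limma 3.58.1 in R 4.3.3 (two-sided, Benjamini-Hochberg over all probe sets), tested on simulated data. Groups followed the titles. The members and the 14 lists (165 genes) were chosen with earlier results of these data known. Named genes were the members, the 5 largest differences of each list of other tetraspanins, partners and vesicle genes, the 5 genes most like Cd81, its 2 measured neighbours on each side, and Tet2. Genes outside this rule were named after their values were seen. Alternatives were the grouping by characteristic, a replicate block, trend with robust variances, array weights, median centring, quantile normalization, brighter probe sets, an adjusted p of 0.1 and leaving out each array.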

Additional observations from a re-analysis of the deposited data

How the results depend on the processing

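The number of probe sets past the threshold was 2 with array weights, ran between 0 and 19 when single arrays were left out (19 if Tet2-/- replicate 6 is omitted, 1 if wild-type replicate 4 is), and was 0 under every other alternative. The Cd81 difference ran between 0.56 and 1.32 with single arrays left out, was 1.16 with array weights and 0.07 by the genotype characteristic, and lay between 0.82 and 0.90 under the remaining alternatives. By that characteristic the sign turned for Cd9 (0.027), Cd151 (0.043), Rom1 (0.077), Prph2 (-0.027), Tspan4 (0.013), Tspan2 (-0.25), Itga4 (-0.12), Itga6 (-0.083), H2-Aa (-0.15), Hbegf (0.33), Timp1 (-0.09), Vps4a (0.11), Flot1 (0.0067), Hgs (0.023), Smpd3 (0.04), R74862 (-0.14), Tssc4 (-0.097) and Trpm5 (0.14). Gpr141, F11r and Tmem176a, the pattern genes that moved by more than their spread, were then at -0.02, -0.12 and -0.19. The sign also turned for Cd53 with median-centred arrays (-0.0017) and for Hgs with array weights (0.084). With single arrays left out, ranges crossed 0 for Cd82 (-0.073 to 0.18), Cd37 (-0.28 to 0.47), Cd53 (-0.047 to 0.15), Hgs (-0.27 to 0.15), Tssc4 (-0.0067 to 0.22) and Tet2 (-0.23 to 0.075). Same-numbered arrays deviated together with correlations of 0.15, -0.215 and 0.112 over probe sets. Those of different-numbered arrays ran between -0.363 (Tet2-/- replicate 6 with wild-type replicate 4) and 0.362 (Tet2-/- replicate 5 with wild-type replicate 4). These correlations cannot decide whether the replicate number marks a pairing, because the deviations of so few arrays depend on each other. With the replicate block 0 probe sets passed, the Cd81 difference stayed at 0.85, and no other call changed. Causes were not tested.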
